A study of Mus musculus with 6 samples.

Results

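Genes that bring glucose into cells, break it down to pyruvate and lactate, store it as glycogen or pass pyruvate to the mitochondria were measured in the stria vascularis, the tissue of the cochlear side wall that secretes endolymph. The list held 38 genes, and every probe set whose platform gene symbol was exactly one of them was taken. This gave 70 probe sets for 35 genes, out of 45101 probe sets on the array, and Gpi1, Pfkfb1 and Eno1 had no probe set under their symbol. RNA came from mice at postnatal day 10 and was hybridised to Affymetrix Mouse 430 2.0 arrays. The 3 heterozygous arrays (replicates 1, 3 and 5) came from mice with 1 working copy of Slc26a4, the gene of the anion exchanger pendrin, and the 3 knockout arrays (replicates 2, 4 and 6) from mice with none. The labels name no wild-type group, strain, sex or further allele, so heterozygous mice are the only controls and also lack a copy of Slc26a4. The labels do not say whether an array stands for an animal, an ear or a pool, so a p-value here covers only how far these samples spread, which may be technical.

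In glycolysis, glucose enters through transporters of the Slc2a family, is trapped by hexokinase, committed by phosphofructokinase, split by aldolase and oxidised to pyruvate, which lactate dehydrogenase turns into lactate or the pyruvate dehydrogenase complex passes into the citric acid cycle. Pyruvate dehydrogenase kinases switch that complex off, and glycogen phosphorylases release stored glucose. The stria pumps potassium into the endolymph with ATP-driven pumps and is among the most metabolically active tissues of the inner ear, fed by its own dense capillary bed.

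One knockout array, replicate 4, was unlike the rest. Its mean correlation with the other 5 arrays over tested probe sets was 0.929, against 0.966 to 0.970 for the others. Slc26a4 itself had signals of 221, 248 and 1006 in the heterozygous and 75.5, 106 and 154 in the knockout arrays, so that the labels and the targeted gene ran the same way, although its limma adjusted p was 0.371 (log2 difference -1.69, or -1.02 without heterozygous replicate 5; exact two-sided permutation p = 0.1, the smallest that 3 against 3 allows). Whether its probe set lies inside the deleted part is not given in the sources used here. Signals are on the linear scale of the array software. Differences are on the scale log2(signal + 16), knockout minus heterozygous, which understates the change of dim genes. In these bulk samples fewer cells of a type and less RNA per cell cannot be told apart.

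None of the 60 tested member probe sets, which stood for 34 genes, passed the threshold of an adjusted p under 0.05 with limma, whose adjusted p ran from 0.371 to 0.991 over them. At that threshold 1 of 27022 probe sets on the array passed, or 0.0037%, so that 0 of 60 is near the background. With the brightest tested probe set standing for each gene, 22 of 34 genes were lower and 12 higher in knockout arrays, with a median log2 difference of -0.12, against -0.04 over all 12421 genes tested. At an unadjusted p under 0.05, 3 member genes were lower (Pfkp, Pygl and Pdk2) and 1 was higher (Eno2). Over all genes tested, 3.23% were lower and 3.21% higher at that p. The knockout arrays lay wholly below the heterozygous ones for 4 member genes (Pfkp, Pygl, Pdk2 and Pdhb) and wholly above for 2 (Eno2 and Pdk1), against a background of 7.04% of genes below and 6.07% above. When arrays were centred on their medians instead, the median over all genes was -0.24 and that of the member genes -0.32, and Slc2a1, Aldoa, Pgk1, Pgam1 and Ldhb were then below 0.

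The downward median was mostly that of knockout replicate 4. For the 34 genes the median deviation from the heterozygous mean was -0.24 there, and 0.01 and -0.07 in knockout replicates 2 and 6. Over all genes it was -0.096 in knockout replicate 4. Of the 34 genes 16 had their lowest value of all 6 arrays in that array, and 10 had their highest there. The same counts over all genes were not made. Without that array the median log2 difference was -0.02, against -0.002 over all genes, with 18 genes lower and 16 higher. At an unadjusted p under 0.05 there were then 2 lower genes (Pfkp and Pygl) and 2 higher (Eno2 and Pdk1), or 5.88% each way. Of all genes 2.86% were lower and 2.88% higher at that p without that array. Pfkp and Pygl were lower at that p with any of the 6 arrays left out, and Eno2 was not higher at that p without heterozygous replicate 1 or without heterozygous replicate 3. Without knockout replicate 6, on the other hand, 5 genes were lower and 5 higher at that p, against 6.37% and 6.42% of all genes, so these counts moved with single arrays. The log2 difference stayed within 1.5 times its value whichever array was left out for 6 of the 34 genes (Pfkp, Pfkfb4, Eno2, Pdhb, Pdk2 and Pygl), and for the other 28 at least 1 array moved it further.

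**Figure D1:**
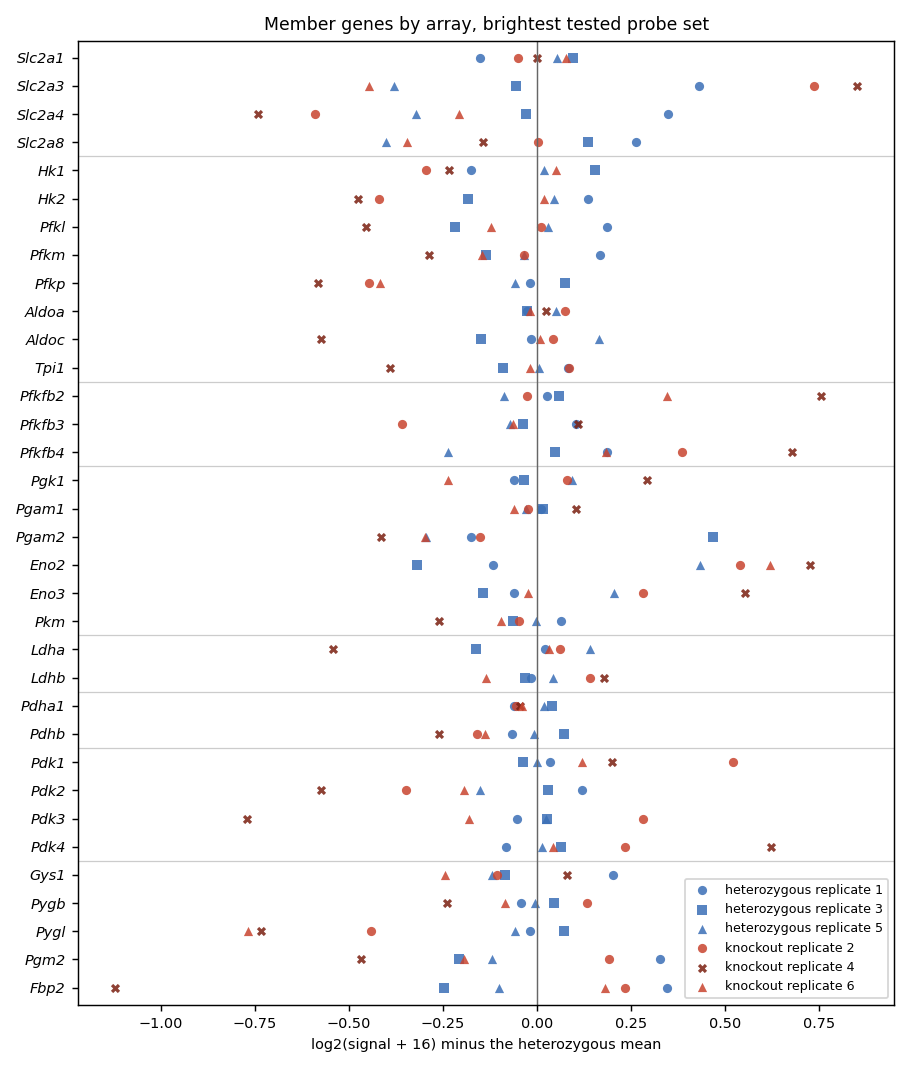
Each row is a member gene, each symbol the log2(signal + 16) of its brightest tested probe set in 1 array minus the mean of the 3 heterozygous arrays, with grey lines between functional groups. Knockout replicate 4 (dark crosses) is the lowest array for 16 of the 34 genes and the highest for 10. The bright enzymes Aldoa and Pgam1 sit close to 0 in every array.

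Among the glucose transporters, Slc2a1 showed the narrowest difference. It encodes GLUT1, the transporter of barrier endothelium and red cells. Its brightest probe set gave signals of 7494, 8903 and 8643 in heterozygous and 8045, 8330 and 8781 in knockout arrays. The groups overlapped fully, with a log2 difference of 0.01 ± 0.08 (SE) and a 95% interval from -0.18 to 0.20. Its other probe sets gave -0.004 and -0.02. In knockout replicate 4 the summed signal of 7 endothelial markers (Pecam1, Cdh5, Kdr, Flt1, Tek, Emcn and Cldn5) was 2581, where the heterozygous arrays had 5206 to 9444 and the other knockout arrays 5472 and 8319. Of these markers Kdr went the other way there, at 579 against 429, 539 and 433 in heterozygous arrays. The others each lay below every heterozygous array. Slc2a1, at 8330 in that array, lay inside the heterozygous range, and the part of endothelial cells in its signal was not tested.

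The other transporters were dimmer and less certain. Slc2a4 encodes the insulin-regulated transporter GLUT4 of muscle and fat. It had signals of 396, 302 and 243 in heterozygous and 199, 178 and 265 in knockout arrays, with the groups overlapping through knockout replicate 6 (log2 difference -0.51 ± 0.25 SE, limma adjusted p = 0.452). All 8 skeletal muscle markers lay below the filter on low signal, with a summed signal of 170 to 236 in heterozygous and 218 to 228 in knockout arrays, as did the 2 adipocyte markers that had a probe set. The endosomal transporter gene Slc2a8 differed by -0.16 ± 0.23 (SE). Slc2a3, the high-affinity neuronal transporter gene, had 139, 94.7 and 72.4 in heterozygous and 176, 192 and 68.3 in knockout arrays, with knockout replicate 6 the lowest of all 6 arrays. Its difference was 0.14 without knockout replicate 4 and 0.79 without knockout replicate 6. Its log2 difference of 0.38 had a 95% interval from -0.45 to 1.21, the widest among the members.

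On their brightest probe sets the preparatory enzymes were lower by small amounts in 7 of 8 genes, and Pfkp was the member of this group whose genotypes separated. Pfkp encodes the platelet isoform of phosphofructokinase, the committing step of glycolysis. Signals were 2111, 2255 and 2054 in heterozygous arrays and 1564, 1423 and 1599 in knockout arrays. Each knockout array thus lay well below the lowest heterozygous one, at means of 2140 ± 103 and 1529 ± 93.4 (SD, n = 3 each). The log2 difference was -0.48 ± 0.12 (SE), a decrease of 28.4%, with a 95% interval from -0.75 to -0.21, a limma adjusted p of 0.371 and an exact permutation p of 0.1. Without knockout replicate 4 it was -0.43. A dimmer probe set of the same gene pointed the other way and is described with the other probe sets.

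The sister isoforms had smaller differences. Pfkl, the liver isoform, stood at 2743 ± 383 in heterozygous and 2411 ± 390 in knockout arrays, and Pfkm, the muscle isoform, at 2085 ± 230 and 1869 ± 166 (SD, n = 3 each). Their log2 differences were -0.19 ± 0.15 and -0.16 ± 0.13 (SE), with limma adjusted p of 0.673 and 0.687. Without knockout replicate 4 they were -0.055 and -0.089. The genotypes overlapped for both, and whether Pfkp differed more than its sisters was not tested. Of the hexokinases that trap glucose in the cell, Hk1 differed by -0.16 ± 0.14 and Hk2 by -0.29 ± 0.21 (SE). A dimmer Hk1 probe set went the other way, at 0.11 ± 0.26 (SE). Hk2 had 433, 343 and 405 in heterozygous and 289, 278 and 398 in knockout arrays, so that knockout replicate 6 lay within the heterozygous range.

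Aldolase and triosephosphate isomerase showed little difference. Aldoa, the aldolase of most tissues, stood at 8627 ± 268 and 8792 ± 283 (SD, n = 3 each), and its 5 probe sets had log2 differences between -0.04 and 0.04. Its 95% interval, -0.12 to 0.18, was the narrowest of the 34 genes. Aldoc, the brain-type aldolase, differed by -0.17 ± 0.22 (SE), with 326 in knockout replicate 4 against 444 to 555 in the other arrays, and by 0.03 without it. Tpi1, which interconverts the 2 triose phosphates, differed by -0.11 ± 0.12 (SE), with all of its 3 probe sets lower, and by 0.03 on its brightest without knockout replicate 4.

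The bifunctional enzymes that make and remove the main activator of phosphofructokinase went both ways. Pfkfb3, a strongly glycolytic form, had 5475, 4964 and 4846 in heterozygous and 3969, 5490 and 4868 in knockout arrays, spanning the same range (log2 difference -0.10 ± 0.12 SE). Pfkfb2 had 1435, 1469 and 1324 in heterozygous and 1381, 2388 and 1794 in knockout arrays. Its knockout arrays spread widely, with knockout replicate 2 inside the heterozygous range, for a log2 difference of 0.36 ± 0.19 (SE, limma adjusted p = 0.492) that was 0.16 without knockout replicate 4. The dim Pfkfb4 stood at 115 ± 19.1 and 159 ± 30.6 (SD, n = 3 each), and its log2 difference was 0.42 ± 0.24 (SE).

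The payoff steps from glyceraldehyde phosphate to pyruvate differed little for Gapdh, Pgk1 and Pgam1. Gapdh was measured by the 3 control probe sets of the array, which were left out of the fit, and its middle probe set gave 6863, 6597 and 6821 in heterozygous and 6775, 6664 and 6630 in knockout arrays. These values overlapped within a narrow band. Pgk1, which makes the first ATP of the pathway, differed by 0.05 ± 0.12 (SE). Pgam1, the main phosphoglycerate mutase, differed by 0.01 ± 0.08 (SE), with a 95% interval from -0.16 to 0.18. Pkm, the pyruvate kinase gene outside liver and red cells, stood at 6293 ± 276 and 5739 ± 440 (SD, n = 3 each) and differed by -0.13 ± 0.09 (SE, limma adjusted p = 0.586), or -0.071 without knockout replicate 4. Pgam2, the muscle mutase, differed by -0.29 ± 0.27 (SE), with its highest value, 175, in heterozygous replicate 3, and by -0.053 without that array.

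Eno2, the neuronal enolase gene, was the member gene with the largest positive difference on its brightest probe set. Signals were 417, 361 and 619 in heterozygous and 667, 761 and 706 in knockout arrays. All knockout arrays lay above all heterozygous ones, although heterozygous replicate 5 came close to knockout replicate 2. The means were 466 ± 136 and 711 ± 47.2 (SD, n = 3 each). The log2 difference was 0.63 ± 0.22 (SE) with a 95% interval from 0.15 to 1.11 and a limma adjusted p of 0.371. Of 5 neuron markers 3 were tested, and all 3 were lower in knockout arrays (Snap25 -0.88, Tubb3 -0.75 and Syt1 -0.41), while Nefl and Nefm lay below the filter. The summed signal of the 5 was 270, 206 and 502 in heterozygous and 124, 143 and 209 in knockout arrays. Between genotypes this sum ran opposite to Eno2. Within the heterozygous arrays, however, both were lowest in replicate 3 and highest in replicate 5. The part of neurons in the Eno2 signal was not tested. Eno3, the muscle enolase, differed by 0.27 ± 0.22 (SE) with overlapping groups, and by 0.13 without knockout replicate 4.

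The lactate dehydrogenase subunits were near level between genotypes. Ldha, the subunit that favours lactate formation, had 4700, 4139 and 5108 in heterozygous and 4836, 3179 and 4736 in knockout arrays. Only knockout replicate 4 lay outside the heterozygous range, and the log2 difference of -0.15 ± 0.16 (SE) was 0.05 without it. Ldhb, the heart subunit, differed by 0.06 ± 0.09 (SE), and its 4 probe sets ran from -0.05 to 0.07.

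Of the 2 genes for the subunits of the first enzyme of the pyruvate dehydrogenase complex, neither passed the test. Pdhb had 4718, 5200 and 4919 in heterozygous and 4423, 4127 and 4491 in knockout arrays, with no overlap. Its means of 4946 ± 242 and 4347 ± 193 (SD, n = 3 each) gave a log2 difference of -0.19 ± 0.09 (SE), a decrease of 12.1%, with a limma adjusted p of 0.449 and a 95% interval from -0.38 to 0.01. Pdha1, its partner subunit, differed by -0.05 ± 0.08 (SE) with overlapping groups, at 5018 ± 26.1 in knockout and 5184 ± 193 in heterozygous arrays (SD, n = 3 each). On the dimmer probe set of each gene the overlap was the other way round. That of Pdha1 had 544, 470 and 434 in heterozygous and 413, 385 and 431 in knockout arrays, without overlap (-0.22 ± 0.18 SE). That of Pdhb overlapped (-0.09 ± 0.19 SE).

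The kinases that inhibit the complex did not move together. Pdk1, a kinase gene induced by low oxygen, had 2416, 2300 and 2361 in heterozygous and 3392, 2714 and 2564 in knockout arrays on its brightest probe set. No knockout array overlapped the heterozygous ones, the spread was larger in the knockout group, and the log2 difference was 0.28 ± 0.13 (SE, limma adjusted p = 0.431). It was 0.16 without knockout replicate 2, the highest array. Pdk2 had 1850, 1738 and 1531 in heterozygous and 1333, 1137 and 1486 in knockout arrays. Its groups came close at knockout replicate 6 and heterozygous replicate 5, and the log2 difference was -0.37 ± 0.15 (SE, limma adjusted p = 0.389), or -0.27 without knockout replicate 4. Pdk4, the fasting-induced kinase, had 2682, 2970 and 2865 against 3341, 4382 and 2923. Here knockout replicate 6 fell within the heterozygous range, and the log2 difference of 0.30 ± 0.15 (SE) was 0.14 without knockout replicate 4. Pdk3 differed by -0.22 ± 0.27 (SE), with 182 in knockout replicate 4 and 281 to 394 elsewhere.

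On their brightest probe sets the glycogen genes were lower or level, and Pygl had the largest negative difference of all members. It encodes the liver-type glycogen phosphorylase, which releases glucose phosphate from glycogen. Signals were 524, 559 and 509 in heterozygous and 387, 313 and 305 in knockout arrays. All knockout arrays lay far below the heterozygous ones, at 531 ± 25.3 and 335 ± 45.2 (SD, n = 3 each). The log2 difference was -0.65 ± 0.18 (SE), a decrease of 36.1%, with a 95% interval from -1.05 to -0.24, a limma adjusted p of 0.371 and an exact permutation p of 0.1. It was -0.60 without knockout replicate 4.

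Its brain-type relative Pygb differed by -0.06 ± 0.14 (SE), with 1592 ± 48.5 and 1531 ± 203 (SD, n = 3 each). Whether the phosphorylases differed from each other in their response was not tested. Gys1, the glycogen synthase of tissues outside the liver, was dim at 152 ± 21.2 and 142 ± 18.0, Pgm2, a phosphopentomutase of the phosphoglucomutase family, stood at 649 ± 138 and 583 ± 139, and Fbp2, the muscle fructose bisphosphatase, at 533 ± 122 and 483 ± 217 (SD, n = 3 each). The log2 difference of Gys1 was -0.09 ± 0.22 (SE), and a dimmer probe set went the other way, at 0.25 ± 0.32 (SE). For Fbp2 the low knockout value was again in knockout replicate 4, at 233, with 440 to 672 in the other 5 arrays.

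**Figure D2:**
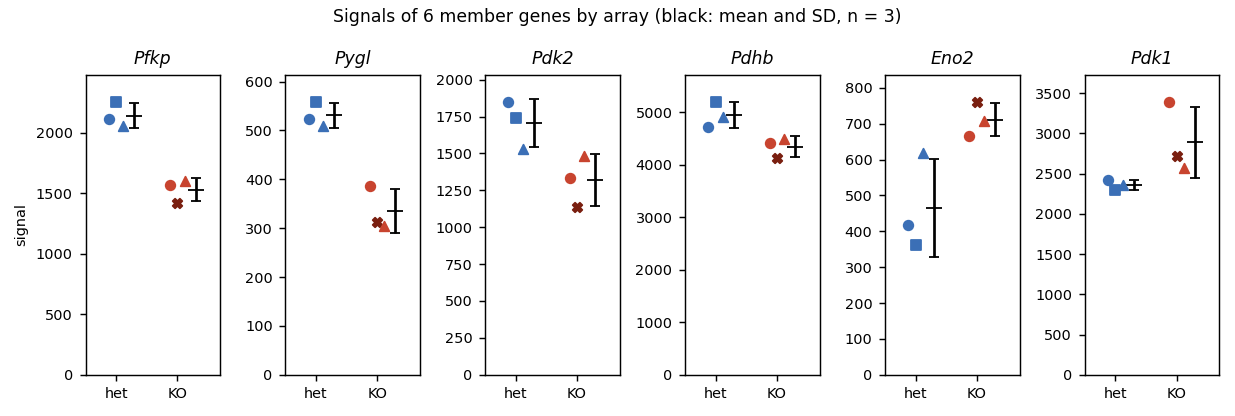
Signal per array for the 6 member genes whose genotypes did not overlap on the brightest probe set, with heterozygous arrays in blue, knockout arrays in red (replicate 4 as a dark cross) and the mean and SD in black. Pfkp, Pygl, Pdk2 and Pdhb were lower and Eno2 and Pdk1 higher in every knockout array, and each vertical axis starts at 0.

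The precision differed widely across the list. For 13 of the 34 genes the 95% interval of the log2 difference lay within 0.5 on either side of 0, and these were bright genes, with mean signals above 1000 in both genotypes. Among the 20 genes with such means, the intervals reached from -0.75 (Pfkp) to 0.78 (Pfkfb2). Among the other 14 genes the widest were those of Slc2a3 (-0.45 to 1.21) and Fbp2 (-1.01 to 0.54), whose arrays of 1 genotype lay far apart.

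**Figure D3:**
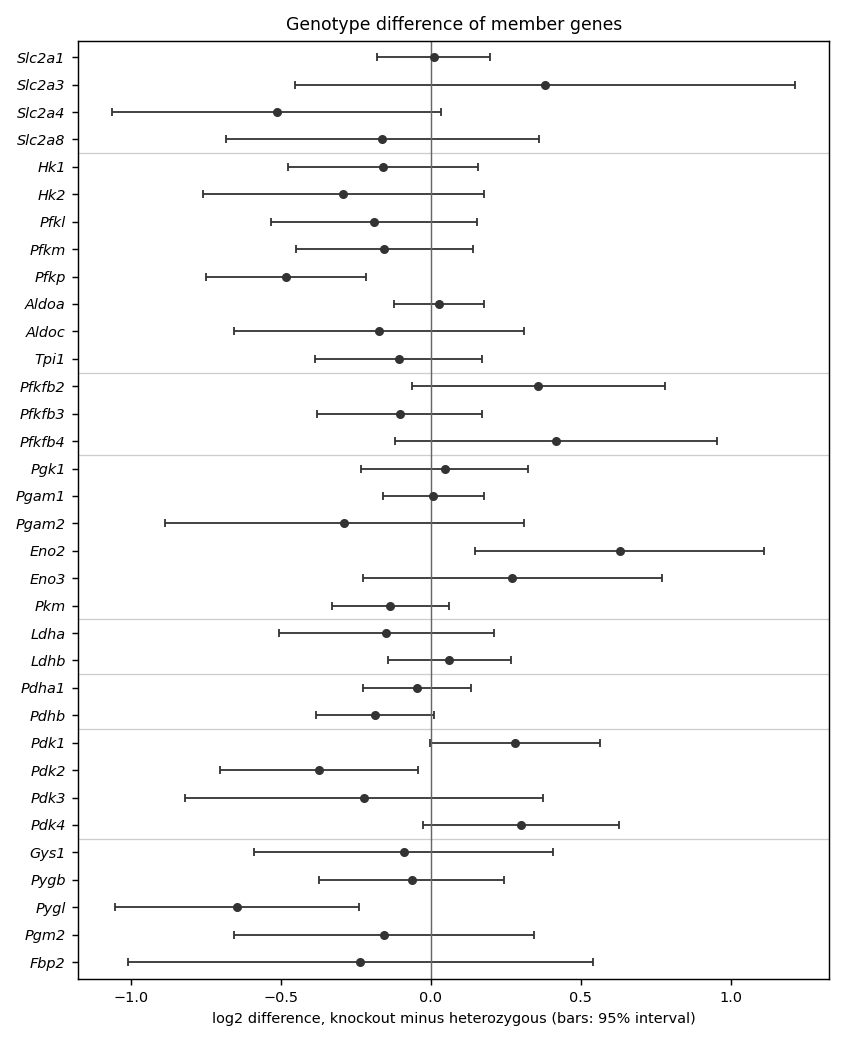
Points give the log2 difference between knockout and heterozygous arrays of each member gene and bars its 95% interval from the limma fit, in the same order as the plot by array. The intervals of Pfkp, Pdk2, Pygl and Eno2 do not cross 0 before adjustment over all probe sets.

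Probe sets of the same gene agreed in direction for 6 of the 14 member genes with several tested ones, and for 8 of the 14 they lay within 0.25 log2 of each other. For the bright genes Slc2a1, Aldoa, Pgk1 and Ldhb the signs differed, over a range from -0.15 to 0.07. Probe sets whose names end in _x_at or _s_at, as several of Aldoa, Pgk1, Ldhb and Slc2a3 do, can hold probes that match other transcripts, so close copies of a gene are not separated there. Pfkfb2 was higher on all 3 of its tested probe sets (0.28 to 0.40) and Pdk1 on all 4.

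For 3 genes a far dimmer probe set stood more than 1 log2 unit above the lowest of its gene. The brightest Pfkp probe set differed by -0.48, while another gave 60.2, 40.1 and 55.6 in heterozygous and 83.9, 147 and 71.6 in knockout arrays, a log2 difference of 0.74 ± 0.30 (SE, limma adjusted p = 0.392). Its heterozygous mean of 51.9 was close to the filter on low signal, which lay at 46.3. A dim Pfkl probe set had 85.8, 67.0 and 94.4 in heterozygous and 165, 320 and 95.8 in knockout arrays, a difference of 0.95, against -0.19 and -0.10 on the bright ones. A Pdk1 probe set had 480, 230 and 231 in heterozygous and 667, 1447 and 421 in knockout arrays, a difference of 1.29, against 0.15 to 0.28 on the others. In all of these the highest value was in knockout replicate 4, and without it the differences were 0.47, 0.54 and 0.81.

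Across the array, too, such probe sets were more often higher than lower. Among further tested probe sets of a gene, those that are not its brightest, 7.91% were higher and 2.02% lower in knockout arrays at an unadjusted p under 0.05. For the members it was 4 higher (the 3 above and a Slc2a3 probe set at 0.77) and 0 lower out of 26. Probe sets with no gene symbol were higher at that p in 34.6% of 3560 cases, against 5.36% of those with a symbol, and in knockout replicate 4 they stood a median of 1.02 log2 above the heterozygous mean. The part of that array in the dim probe sets of Pfkp, Pfkl and Pdk1 is given by the values without it above, and a cause was not tested.

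**Figure D4:**
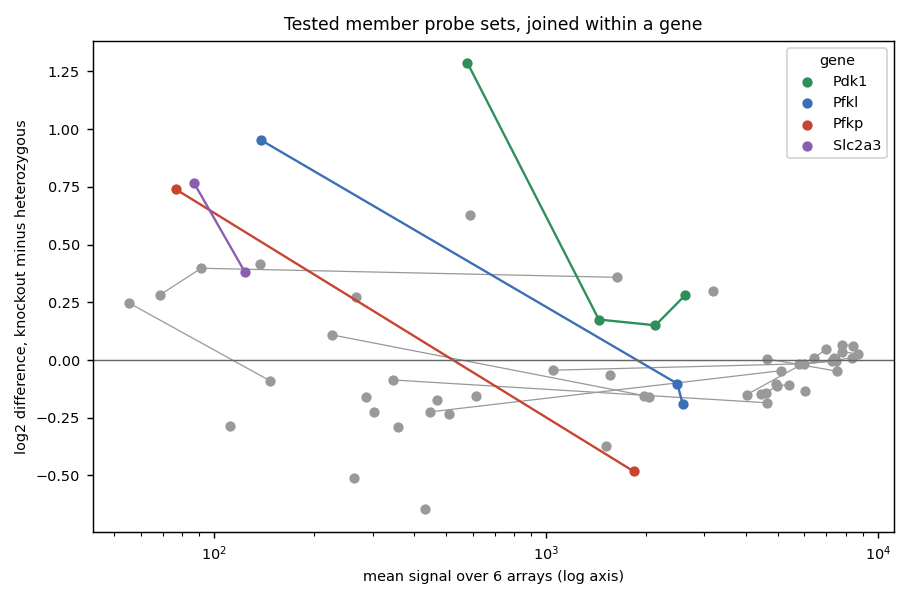
Each point is a tested member probe set, placed by its mean signal over the 6 arrays (log axis) and its log2 difference between genotypes, and lines join probe sets of a gene. The dim probe sets of Pfkp, Pfkl, Pdk1 and Slc2a3 (coloured) lie above the brighter ones of the same gene, and bright probe sets gather around 0.

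The Gapdh control probe sets also measure how evenly the transcript was copied along its length. The ratio of the 3' to the 5' probe set was 1.35, 1.41 and 1.40 in heterozygous and 1.52, 1.69 and 1.29 in knockout arrays. For Actb the ratios were 2.42, 3.06 and 3.14 in heterozygous and 3.15, 4.48 and 2.63 in knockout arrays. Both were highest in knockout replicate 4, the array in which member genes had their lowest median, while knockout replicate 6 had the lowest Gapdh ratio of all and an Actb ratio inside the heterozygous range. The 3' Gapdh signal of knockout replicate 4, 10042, was also the highest of the 6 arrays, which is why a level for Gapdh is given from the middle probe set. The part of these ratios in the differences was not tested.

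**Figure D5:**
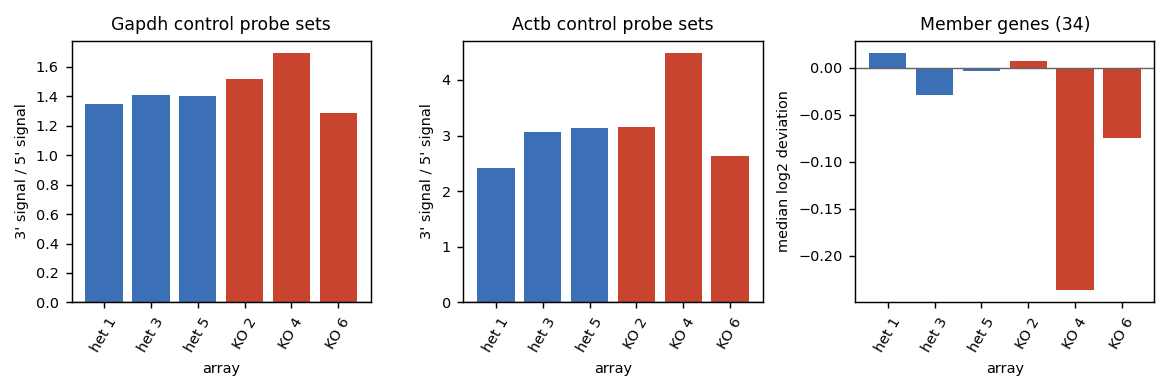
Bars give, for each array, the ratio of the 3' to the 5' signal of the Gapdh and Actb control probe sets and the median log2 deviation of the 34 member genes from the heterozygous mean (het, heterozygous, blue; KO, knockout, red). Knockout replicate 4 has the highest ratios (1.69 and 4.48) and the lowest member median (-0.24, where the median over all genes was -0.096).

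Promoters of these genes are shown because many of them carry a motif tied to oxygen sensing. The binding site of hypoxia-inducible factors commonly holds ACGTG, and these factors are known to raise glycolytic genes when oxygen is short. The motif ACGTG was searched on both strands (CACGT on the other) in the 250 bases before each start site in the RefSeq promoter table, build GRCm38.p6, with overlapping matches counted as 1 place. A match inside CACGTG is also an E-box, which MYC and other factors bind. A gene counted as holding the motif if any of its start sites did. Of 36 member genes that have a promoter there, 17 held it (47.2%), against 18.5% of 27025 genes. Among genes tested on the array the shares were 53.1% of 32 members and 24.8% of 10031 genes. Neither base composition nor the number of start sites per gene was matched. The 4 sequences below are Ldha, with the most places, Pgk1, a classic oxygen-regulated gene, and Pygl and Pfkp, the members with the lowest unadjusted p. Capitals mark the motif, and each runs 5' to 3' on the strand of the gene.

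Ldha, chr7:46845554-46845803, plus strand: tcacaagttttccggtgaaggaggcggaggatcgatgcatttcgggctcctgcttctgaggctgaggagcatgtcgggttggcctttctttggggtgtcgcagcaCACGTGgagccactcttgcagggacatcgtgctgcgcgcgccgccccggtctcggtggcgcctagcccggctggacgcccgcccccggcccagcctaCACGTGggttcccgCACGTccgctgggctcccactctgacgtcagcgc
Pgk1, chrX:106186850-106187099, plus strand: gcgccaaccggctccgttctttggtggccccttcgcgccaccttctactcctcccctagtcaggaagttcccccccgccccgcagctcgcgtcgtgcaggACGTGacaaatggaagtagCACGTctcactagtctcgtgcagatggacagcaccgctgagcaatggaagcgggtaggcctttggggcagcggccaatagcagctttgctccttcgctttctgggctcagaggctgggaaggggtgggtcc
Pygl, chr12:70227684-70227933, minus strand: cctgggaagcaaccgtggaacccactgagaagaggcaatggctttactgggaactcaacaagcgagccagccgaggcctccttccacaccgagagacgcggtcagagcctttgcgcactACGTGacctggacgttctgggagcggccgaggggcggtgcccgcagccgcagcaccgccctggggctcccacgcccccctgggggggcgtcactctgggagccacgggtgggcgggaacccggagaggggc
Pfkp, chr13:6648772-6649021, minus strand: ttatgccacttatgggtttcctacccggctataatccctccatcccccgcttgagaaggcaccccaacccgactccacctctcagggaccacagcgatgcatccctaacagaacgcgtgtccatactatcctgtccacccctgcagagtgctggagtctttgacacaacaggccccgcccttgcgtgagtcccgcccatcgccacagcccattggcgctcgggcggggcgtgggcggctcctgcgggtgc

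Ldha (3 places at the start site shown, 0 at its other one) and Pgk1 (2 places) were near level between genotypes. Pygl (1 place) was lower in every knockout array, and Pfkp, also lower on its brightest probe set, had none in this window. The 17 tested members with the motif had a median log2 difference of -0.15 and the 15 without it -0.09, against -0.03 and -0.04 for all genes with and without it. A match is a description of the sequence and does not show that a factor binds there.

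Other genes of glucose metabolism, from 10 lists, were mostly lower by small amounts as well. Of 94 such genes 88 had a probe set and 76 were tested. With limma 0 passed the adjusted threshold (0.0037% of all probe sets did), 50 were lower and 26 higher, and the median log2 difference was -0.06. At an unadjusted p under 0.05, 4 were lower and 0 higher, against 3.23% lower and 3.21% higher of all genes. The groups did not overlap for 12 lower genes (15.8%) and 3 higher ones (3.95%), against 7.04% and 6.07% of all genes. Without knockout replicate 4 the median was -0.03, over the 79 then tested, with 3 lower (3.80%) and 2 higher (2.53%) at that p. Of all genes 2.86% were lower and 2.88% higher without that array.

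The 4 lower genes act in transport, glycogen and pyruvate entry. Slc16a7, a monocarboxylate transporter that carries lactate and pyruvate, had 479, 575 and 425 in heterozygous and 265, 171 and 291 in knockout arrays. No array overlapped, with a log2 difference of -0.999 ± 0.24 (SE), a limma adjusted p of 0.371 and -0.78 without knockout replicate 4. Slc5a1, the sodium-driven glucose transporter of gut and kidney, had 210, 188 and 107 against 70.4, 91.4 and 79.9, a difference of -0.89 ± 0.28 (SE, limma adjusted p = 0.371). Gbe1, the glycogen branching enzyme, had 1276, 1316 and 1347 against 1089, 816 and 954, again with no overlap, a difference of -0.47 ± 0.15 (SE, limma adjusted p = 0.371) that was -0.36 without knockout replicate 4. Pdp1, the phosphatase that switches pyruvate dehydrogenase back on, differed by -0.68 ± 0.29 (SE, limma adjusted p = 0.417), and by -0.38 without that array, with overlapping groups.

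By list, 5 of 6 tested pentose phosphate genes were lower (median -0.21), where 7063 of all 12421 genes were. In 3 of them, named after their values were seen, the genotypes did not overlap on the brightest probe set (Pgls -0.35, Pgd -0.20 and Rpia -0.21), against 7.04% of all genes lower without overlap. For Pgd, heterozygous replicate 1 (4832) and knockout replicate 6 (4830) nearly met. The genotypes overlapped on every other tested probe set of Pgd (-0.19, -0.16 and -0.41). Of 15 tested citric acid cycle genes 12 were lower by small amounts (median -0.04), and 14 had a 95% interval within 0.5 log2 of 0. The 11 genes of oxygen and MYC control had a median of 0.02, with 6 higher and 5 lower. Named after their values were seen, Myc, a growth-promoting factor, stood at 92.1 ± 24.6 and 146 ± 34.6 (SD, n = 3 each) with no overlap, a log2 difference of 0.59 ± 0.27 (SE, limma adjusted p = 0.429). On their brightest probe sets the genotypes also did not overlap for Adm, a peptide hormone gene (0.20 ± 0.10 SE), and Arnt, the partner of Hif1a (-0.19 ± 0.12 SE). They overlapped on every other tested probe set of both, with differences of -0.008 for Adm and 0.02, 0.15 and 0.30 for Arnt. Hif1a, the oxygen-regulated factor itself, differed by 0.15 ± 0.09 (SE) on its brightest probe set. Its other tested probe sets gave 0.09, -0.05 and 0.92. The last was dim and did not overlap, with 84.6, 150 and 112 in heterozygous and 236, 281 and 179 in knockout arrays. Vegfa, an angiogenic target of Hif1a, differed by 0.02 ± 0.20 (SE) on its brightest probe set and by -0.20 on its other one. The other lists had medians of -0.11 (glucose transporters, 5 genes), -0.08 (lactate and pyruvate transport, 5), -0.08 (other isozymes and shunts, 5), -0.04 (gluconeogenesis, 4), 0.03 (glycogen, 11), -0.19 (pyruvate dehydrogenase, 6) and -0.02 (insulin and AMP kinase, 8). Of these 0 genes passed the adjusted threshold.

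Markers of the cells in the sample were set beside these values. The summed signal of 5 marginal cell markers was 27459 to 29516 in heterozygous and 26711 to 31262 in knockout arrays, and that of 3 basal cell markers 24213 to 26083 and 25707 to 27895. The 5 intermediate cell markers summed to 23091 to 26913 and 23830 to 25287, so the defining strial markers were present in all arrays. Such sums weigh bright genes most. By gene, 4 of the 5 marginal markers were lower (median log2 difference -0.04, Bsnd the lowest at -0.47). So were 4 of the 5 intermediate ones (median -0.08, Kcnj13 the lowest at -0.66). Of the 3 basal markers 2 were higher (median 0.05), and 0 of all these were called. Root and spindle cell markers, of which Slc26a4 itself is 1, were 11148 to 18428 and 9430 to 12196, pericyte and smooth muscle markers 8980 to 11082 and 6519 to 10342, macrophage markers 2737 to 3973 and 3039 to 3996, and fibrocyte markers 6953 to 17099 and 10351 to 14355. By gene, 3 of 4 root and spindle and 5 of 6 pericyte and smooth muscle markers were lower (Acta2 -1.63). Of 5 macrophage markers 4 were higher. Of 4 fibrocyte markers 2 were lower (Lum -1.61 the lowest) and 2 higher (Col1a1 1.15 the highest). Cartilage and bone markers were higher in each knockout array (15239 to 19661) than in any heterozygous one (9762 to 12032), with 9 of 9 tested genes higher and 0 called, and their part in the differences of Pfkp, Pygl or Eno2 was not tested. Granulocyte markers were 970 to 3528 and 296 to 1909, with the lowest value in knockout replicate 4, and erythrocyte markers 41.3 to 149 and 16.3 to 74.2. Of the 2 erythrocyte markers with a probe set only 1, Alas2, was tested.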

How the data were processed

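RNA of 6 stria vascularis samples was purified with Qiagen reagents, then amplified by NuGEN Ovation, per the labels' protocols. The authors deposited linear intensity values (signals) made with GCOS, per the submitters' processing notes, and its version is not given in the sources used here. All arrays had a 2% trimmed mean of 500.002, so they had been scaled before deposit. Control probe sets (64) were left out. Probe sets with a mean signal under the 40th percentile (46.3) were removed, which left 27022. The log2(signal + 16) values were fitted with limma 3.58.1 in R 4.3.3 (variance trend, two-sided, Benjamini-Hochberg over all tested probe sets, threshold 0.05), with 3 arrays per genotype, taken from the sample titles. The fit was tested on simulated data. The brightest tested probe set stood for a gene. Names came from the platform annotation, and a RefSeq gene table matched all 35 member genes by identifier with the same symbol. All members, Slc26a4 and genes of the other lists with an unadjusted p under 0.05 are named. The members, lists and tests were chosen with earlier results of these data known. Set tests and likeness between genes were not used. Levels of different probe sets were not compared. Alternatives were other offsets, scalings, filters, variance models and array weights, and leaving out each array. A filter on the mean log2 value was added after seeing the data. Python 3.11.15 with matplotlib 3.10.9 drew the figures.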

Additional observations from a re-analysis of the deposited data

How the results depend on the processing

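No paired analysis was made, because the labels do not say whether any heterozygous and knockout samples form pairs. The number of called member probe sets and of other glucose genes was 0 with limma under each of the 15 alternatives. Over all probe sets the count of 1 was 3 with quantile normalization, 3 with median centring, 0 with no filter, 0 with the 60th percentile filter and 23 with array weights, and 0 to 13 with an array left out (13 without knockout replicate 4). At an unadjusted p under 0.05 there were 8 member probe sets, 17 with median centring and 3 to 14 with an array left out (14 without knockout replicate 6). Taken by gene, 3.23% of all genes were lower and 3.21% higher at that p with all arrays. Without knockout replicate 6 these shares were 6.37% and 6.42%. With median centring, which also lowered the median of all genes, the share over all probe sets was not counted. The member median of -0.12 was -0.32 with median centring, which moved the median of all genes alike, from -0.04 to -0.24, and -0.035 with array weights. Its gap to the median of all genes, -0.083, was -0.024 with array weights and -0.019 without knockout replicate 4. Leaving out an array gave -0.17 to -0.021, the last without knockout replicate 4. Of 42 member and other gene differences 27 kept their sign under every alternative, Pfkp (-0.68 to -0.43 on its brightest probe set), Pygl (-0.85 to -0.57) and Eno2 (0.43 to 0.85) among them. The other 15 lay within 1 SE of 0. With quantile normalization and median centring the sign turned for Slc2a1 (-0.10 and -0.19), Aldoa (-0.076 and -0.17), Pgk1 (-0.048 and -0.15), Pgam1 (-0.077 and -0.19) and Ldhb (-0.042 and -0.14). With array weights it turned for Slc2a1 (-0.031), Slc2a8 (0.0056), Tpi1 (0.0048), Pgk1 (-0.040), Pgam1 (-0.012), Pygb (0.013), Pgm2 (0.053) and Fbp2 (0.13). Leaving out an array turned it for Slc2a1 (-0.066 to 0.058), Aldoc (-0.28 to 0.026), Tpi1 (-0.20 to 0.034), Pfkfb3 (-0.21 to 0.023), Pgk1 (-0.078 to 0.19), Pgam1 (-0.041 to 0.041), Ldha (-0.25 to 0.047), Pdk3 (-0.48 to 0.051), Gys1 (-0.17 to 0.012), Pygb (-0.16 to 0.024), Pgm2 (-0.33 to 0.0072) and Fbp2 (-0.47 to 0.21). The cause of these turns was not tested.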
